A study of Homo sapiens with 36 samples.

Results

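BT549 is a human triple-negative breast cancer line, and BRM014 is a small molecule that blocks the ATPases of the SWI/SNF chromatin remodelling complex. The results here concern 4 h of 10 µM BRM014 without dexamethasone, set against its solvent DMSO, with 4 ATAC-seq libraries in each group and 36 libraries in the whole series. ATAC-seq marks DNA that a transposase can reach, and each library came with its own list of accessible peaks. Overlapping peaks on chromosomes 1 to 22 and X of these 8 libraries were joined, which gave 145171 regions. Any overlap with a peak of a library, down to 1 bp, counted as that library holding the region. A region was lost when all 4 DMSO libraries and no BRM014 library held it, gained in the reverse case, and kept when all 8 held it. By that rule 16076 regions were lost, which is 11.1% of all regions, 64 were gained, which is 0.0441%, and 31944 were kept.

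The cells of both groups were labelled wild type with no siRNA named, and the libraries were titled as biological replicates. Libraries that the rule did not use were read as well. The labels do not say whether they were prepared separately. In DEX_DMSO and DEX_BRM014 the cells received 500 nM dexamethasone (DEX), a synthetic glucocorticoid, for 4 h with DMSO or with BRM014. In siCtl_only and siBRG1_siBRM the cells received control siRNA or siRNA against BRG1 and BRM, the proteins of SMARCA4 and SMARCA2. The duration of that knockdown is not stated. Each of these groups also had 4 libraries. All come from 1 cell line, so p-values measure the spread between libraries of that line. For 4 libraries against 4, the smallest two-sided p that the exact permutation test over libraries can give is 0.0286.

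SWI/SNF complexes use the energy of ATP to slide and evict nucleosomes, and either BRG1 or BRM serves as the motor. They are known to act above all at enhancers, distal elements bound by factors such as AP-1 and TEAD, where nucleosomes return quickly once the motor stops. Promoters rich in CpG dinucleotides tend to be nucleosome-poor by other means as well, including their base composition and other remodellers. An ATAC peak reports access, not transcription.

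Bases were read in promoter windows only. Regions at gene starts were 6.51% of the lost regions, and 88.7% lay away from gene ends. Sequences of those distal regions were not analysed, so the motif shares below describe promoters and not the whole lost set. The windows span 250 bases before to 50 after a gene start (RefSeq, GRCh38.p14), and a library held a window when it held a region overlapping it. Of 34961 windows, 562 were lost (1.61%), 12665 were kept and 18107 met no region in any of the 8 libraries. The 3 lost windows below, from MBNL2 (a splicing regulator of the muscleblind family, chr13:97141584-97141883, plus strand), SRPX2 (a secreted sushi-repeat protein, chrX:100643949-100644248, plus strand) and C1R (a protease of the complement system, chr12:7092396-7092695, minus strand), are among the 8 lost windows with the strongest DMSO peaks and were picked for their motif matches. The kept window of RBM27 (an RNA-binding protein, chr5:146203355-146203654, plus strand) is among the 8 strongest kept ones. Capitals mark matches, on either strand, to TGANTCA (AP-1), GGAATG (TEAD), CCGGAAGT (ETS), CCAAT (NFY) or GGGCGG (SP1).
MBNL2: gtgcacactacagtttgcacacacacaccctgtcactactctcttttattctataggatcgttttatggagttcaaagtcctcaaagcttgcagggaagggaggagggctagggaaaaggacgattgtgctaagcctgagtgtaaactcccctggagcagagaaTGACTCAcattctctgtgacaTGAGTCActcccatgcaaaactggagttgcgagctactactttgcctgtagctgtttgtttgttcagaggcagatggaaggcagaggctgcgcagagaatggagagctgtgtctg
SRPX2: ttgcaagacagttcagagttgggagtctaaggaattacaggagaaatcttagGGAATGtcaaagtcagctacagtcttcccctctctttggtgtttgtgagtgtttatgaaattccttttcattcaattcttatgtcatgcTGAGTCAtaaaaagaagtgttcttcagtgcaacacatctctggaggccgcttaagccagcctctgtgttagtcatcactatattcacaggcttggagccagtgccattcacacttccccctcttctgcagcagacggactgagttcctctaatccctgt
C1R: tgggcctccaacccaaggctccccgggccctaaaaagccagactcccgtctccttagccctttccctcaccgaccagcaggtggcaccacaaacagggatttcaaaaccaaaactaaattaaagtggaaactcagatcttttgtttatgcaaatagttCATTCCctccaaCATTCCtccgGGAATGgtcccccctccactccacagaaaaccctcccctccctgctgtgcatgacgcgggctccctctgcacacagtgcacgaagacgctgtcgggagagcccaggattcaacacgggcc
RBM27: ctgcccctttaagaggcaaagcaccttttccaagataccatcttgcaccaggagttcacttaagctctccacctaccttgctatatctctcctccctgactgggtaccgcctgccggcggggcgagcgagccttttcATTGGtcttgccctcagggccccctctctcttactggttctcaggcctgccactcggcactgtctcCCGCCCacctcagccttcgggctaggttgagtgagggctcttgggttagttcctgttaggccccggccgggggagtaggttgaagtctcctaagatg

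MBNL2 carries 2 AP-1 matches and 4 CpG dinucleotides, SRPX2 has 1 AP-1 and 1 TEAD match with 2 CpG, and C1R has 3 TEAD matches with 10 CpG. The RBM27 window holds 1 NFY and 1 SP1 match and 10 CpG, with no AP-1 or TEAD match. Windows of the same 2 sets of 8 that are not printed did not all follow this split. The lost windows of TENM3 and HTR5A had no AP-1 or TEAD match and 39 and 26 CpG. The kept window of SRGAP2C had 1 TEAD match. Over all windows the AP-1 letters occurred in 18.9% of the lost, 3.64% of the kept and 7.68% of all windows. The TEAD letters occurred in 18.7% of lost, 9.97% of kept, 14.04% of all windows and 16.9% of windows with no region. The order turned round for ETS, found in 1.07% of lost, 9.94% of kept and 4.14% of all windows. SP1 letters were more frequent in kept than in lost windows, at 74.8% and 50.7%, but both lay above the 45.0% of all windows. NFY letters were in 26.5% of lost, 37.9% of kept and 34.6% of all windows. A match is a description of letters and not a bound site.

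Lost windows were also poorer in CpG, with a median of 16 against 28 in kept windows and 14 in all, and a median GC content of 61.7% against 66.3% and 58.7%. Of windows held by all 4 DMSO libraries, 28.0% were lost where the window had 0 to 4 CpG, 6.27% with 10 to 14 and 2.17% with 25 or more. Since AP-1 letters are rarer in CpG-rich DNA, they were also counted at like CpG content. With 0 to 9 CpG, 78 of 217 lost windows (35.9%) and 103 of 575 kept windows (17.9%) held them, beside 12.01% of windows with no region. With 20 or more CpG the shares were 6.05% of 248 lost and 2.54% of 9998 kept windows. ETS letters at 20 or more CpG were in 1.21% of lost and 10.3% of kept windows, and at 10 to 19 CpG in 1.03% and 10.7%. With 0 to 9 CpG they were rare in both, in 0.92% of lost and 1.57% of kept windows. TEAD letters were not counted by CpG content. Lost and kept windows were not matched for the strength of their DMSO peaks. Among gene-start regions, 0.0677% were lost in the strongest decile of DMSO rank and 44.6% in the weakest. The part of peak strength in the CpG and motif differences was not tested.

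**Figure D1:**
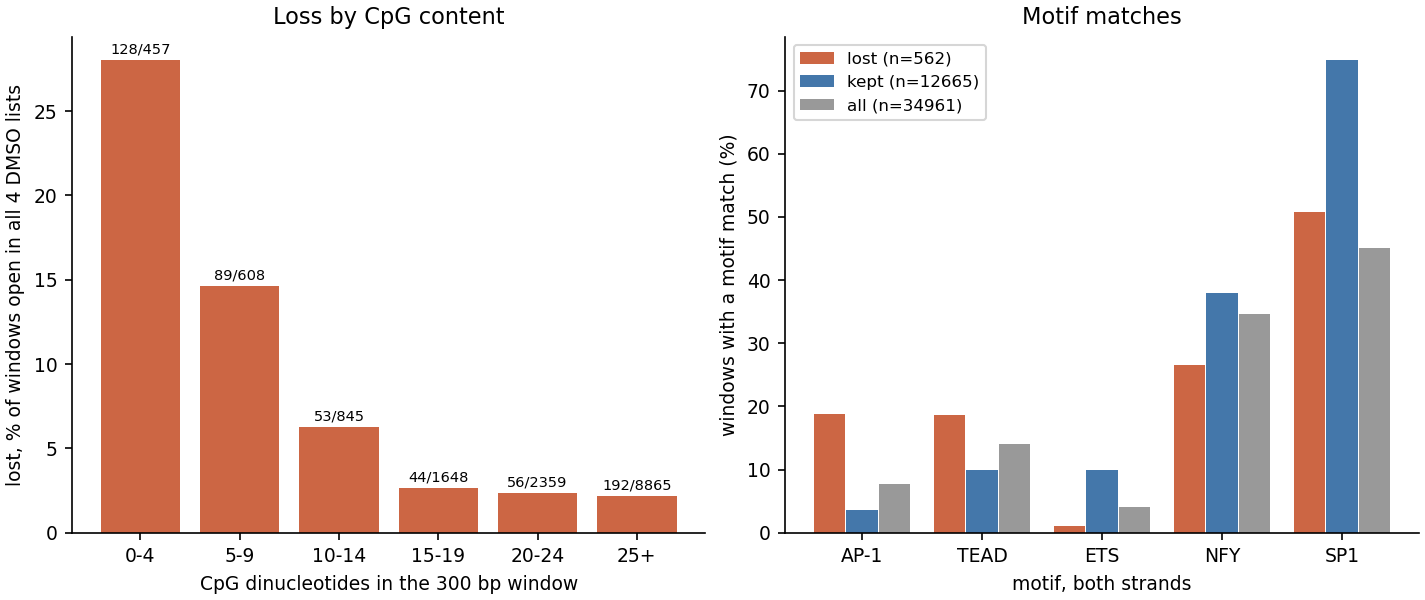
Left, share of promoter windows held by all 4 DMSO libraries that were lost with BRM014 (y axis, %) by number of CpG dinucleotides (x axis), with lost and total windows above each bar. Right, share of lost, kept and all windows with a match to each motif (y axis, %); AP-1 letters stand in 18.9% of lost and 3.64% of kept windows, ETS letters in 1.07% and 9.94%.

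The deposited lists were shorter and their peaks narrower with BRM014. Covered DNA was 17.3, 19.2, 18.0 and 19.5 Mb in the DMSO libraries and 8.94, 10.6, 10.1 and 6.88 Mb in the BRM014 libraries. The BRM014 libraries all lay below the DMSO libraries, and replicate 4 was the lowest. The median peak width was 155 ± 1.15 bp (SD, n = 4) with DMSO and 134 ± 3.16 bp with BRM014, and both differences had an exact permutation p of 0.0286 (adjusted p = 0.0291 over 51 tests). Read totals are not part of the lists. The most frequent background level under weak peaks, recovered from the deposited fold and p, was 0.241, 0.302, 0.274 and 0.305 reads in DMSO and 0.267, 0.299, 0.235 and 0.299 in BRM014. These ranges overlapped, and the difference of -0.0055 had an exact permutation p of 0.686 (adjusted p = 0.686). Not every peak has this background: it underlay 48.4 to 61.8% of the weak peaks in the DMSO libraries and 18.9 to 41.3% in the BRM014 libraries, ranges that do not overlap, and the part of this in the results was not tested. Weak peaks were drawn from the same number of lowest peaks in each list. They are thus a larger part of the shorter BRM014 lists, and the groups are not compared like for like. Markers were read as access near the gene: of the genes known for mesenchymal cells VIM had 9 regions held by all DMSO libraries inside it or within 50 kb, SPARC 9, CDH2 6, FN1 5 and ZEB1 4. Of the receptor genes that define the subtype, ERBB2 had 9, ESR1 3 and PGR, the progesterone receptor gene, none. The epithelial genes GRHL2, CDH1, KRT8, EPCAM and KRT18 had 23, 12, 9, 7 and 4, and the leukocyte gene PTPRC had 8. Counts of regions near a gene did not set mesenchymal genes apart from epithelial ones.

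Loss fell mainly on distal regions. A region was called gene-end when its strongest summit lay within 1000 bp of an end of a protein-coding or lncRNA gene and distal otherwise. Of 16076 lost regions 14258 were distal (88.7%), against 18146 of 31944 kept regions (56.8%). Among the 65525 regions held by all 4 DMSO libraries, 31.3% of those inside genes and 30.5% of those between genes were lost, but 7.38% of those at gene starts. At gene 3′ ends, for genes with a known strand, 20.9% were lost. The lost share was larger farther from the nearest gene end, at 25.1% from 1 to 10 kb, 32.9% from 10 to 50 kb and 39.5% beyond 100 kb. At gene starts 74.2% of regions were kept, against 38.3% of distal regions in genes.

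**Figure D2:**
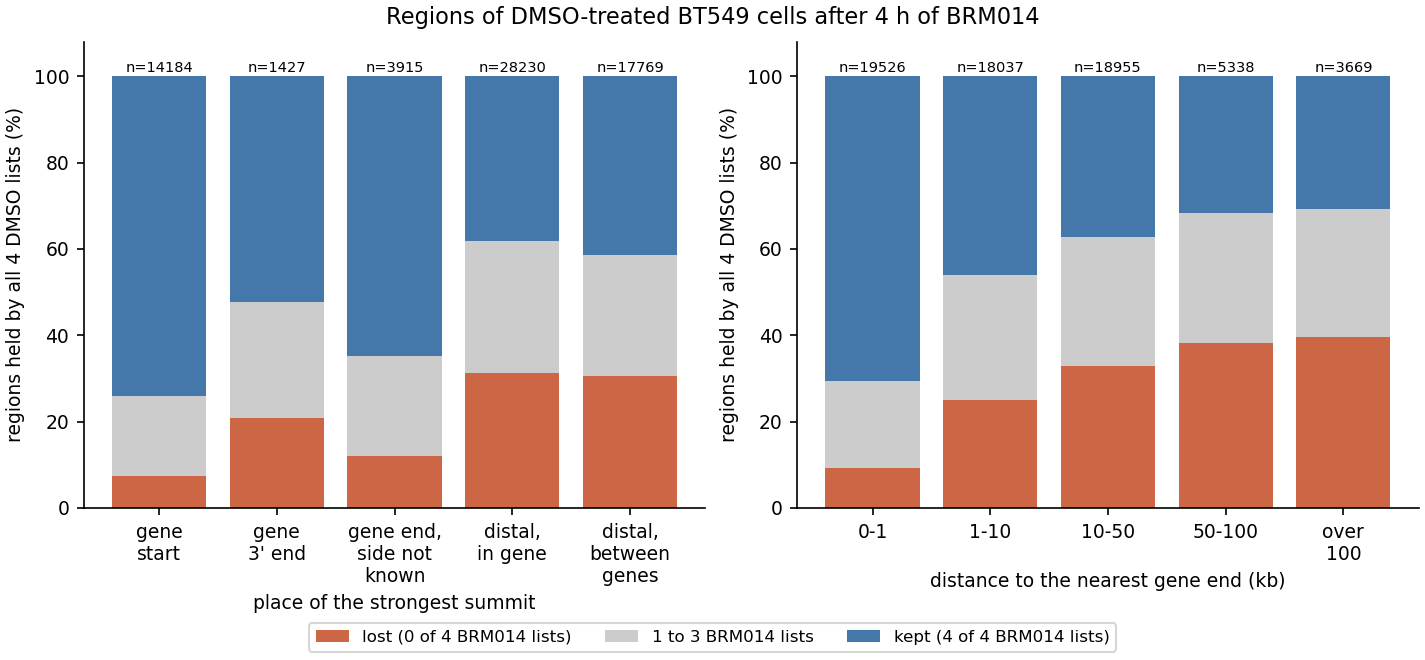
Share of regions held by all 4 DMSO libraries (y axis, %) that no, some or all BRM014 libraries held, by place of the strongest summit (left) and by distance to the nearest gene end (right); n is the number of regions. The lost part grows from 7.38% at gene starts to 39.5% beyond 100 kb.

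Strong and weak peaks differed too, so location was also compared at like strength. Regions were ranked by the mean place of their peaks in the 4 DMSO lists and cut into deciles. In the strongest decile 2 of 2955 gene-start regions and 44 of 2824 distal regions were lost. In the middle of the range, the fifth decile, the lost share was 3.60% at gene starts and 22.7% among distal regions, and in the weakest decile 44.6% and 64.6%. Regions that missed the rule narrowly were 7612 held by 3 DMSO and no BRM014 libraries and 5241 held by all 4 DMSO libraries and 1 BRM014 library. Loss therefore graded into retention: of the regions in all DMSO libraries, 24.5% were in no BRM014 list, 48.8% in all 4 and the rest in 1 to 3.

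A test that does not use these lists to choose the regions took 59680 reference regions held by all 4 siCtl_only libraries and asked how many each library held. Gene-end reference regions were held at 96.8, 98.3, 97.5 and 98.5% by the DMSO libraries and at 83.1, 86.7, 84.5 and 74.7% by the BRM014 libraries. Distal reference regions were held at 95.5, 97.4, 96.5 and 97.3% with DMSO and at 59.6, 66.4, 65.1 and 48.6% with BRM014. Every BRM014 library lay under every DMSO library in both classes, and BRM014 replicate 4 was lowest in both. The gap of gene-end over distal was 1.11 ± 0.212 percentage points (SD, n = 4) in DMSO and 22.3 ± 3.07 in BRM014. That difference between locations, 21.2 points, had an exact permutation p of 0.0286 (adjusted p = 0.0291) and was seen in 4 of 4 BRM014 libraries.

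The gap held in each quintile of reference strength. In the strongest quintile DMSO libraries held 99.98% of distal regions and BRM014 libraries 88.3% ± 4.16 (SD, n = 4), while gene-end regions were at 98.9% ± 0.470 with BRM014. In the third quintile BRM014 libraries held 85.5% ± 6.23 of gene-end and 64.1% ± 7.33 of distal regions, a gap of 21.4 ± 1.57 points. In the weakest quintile the gap was 7.74 ± 2.27 points, with 41.1% and 33.3% held. Mean DMSO gaps ranged from -0.77 to 0.48 points over the quintiles, and each difference from DMSO had an adjusted exact permutation p of 0.0291. Single DMSO libraries had gaps of -1.90 to 1.19 points in the weakest quintile. Gene starts alone were held at 84.6% ± 4.83 with BRM014, gene 3′ ends at 69.9% ± 7.47 and regions over 100 kb from a gene end at 53.3% ± 8.07, against 98.0%, 96.4% and 96.3% with DMSO.

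**Figure D3:**
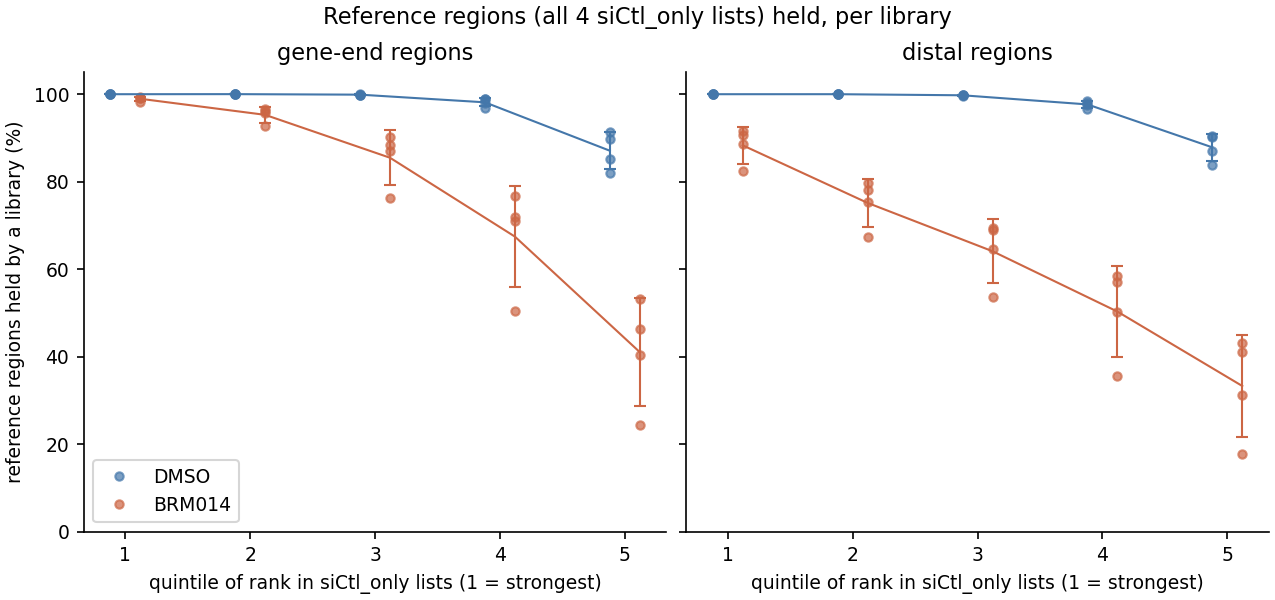
Share of reference regions held by each library (y axis, %) by quintile of strength in siCtl_only (x axis), for gene-end (left) and distal (right) regions; points are libraries, lines join group means and bars are SD (n = 4). BRM014 libraries held 88.3% of distal regions and 98.9% of gene-end regions in the strongest quintile, where DMSO libraries held nearly all.

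The lost set followed BRM014 into libraries that had not chosen it. Of the lost regions, 87.3, 83.6, 83.9 and 83.9% had a peak in the DEX_DMSO libraries and 10.4, 6.97, 4.72 and 4.65% in the DEX_BRM014 libraries. With siRNA the shares were 89.8, 87.2, 77.7 and 72.4% in siCtl_only and 34.1, 11.1, 4.39 and 10.7% in siBRG1_siBRM. Groups did not overlap in either experiment, and siBRG1_siBRM replicate 1 stood well above the other 3. Both differences had an exact permutation p of 0.0286 (adjusted p = 0.0286 and 0.0364). List lengths differed as well: siBRG1_siBRM replicate 1 had 66607 peaks, the other 3 had 37184 to 51438, and siCtl_only had 81639 to 87609. With lost regions called again from lists of equal length, the means were 87.8% in siCtl_only and 24.3% in siBRG1_siBRM. They were 83.2% in DEX_DMSO and 6.44% in DEX_BRM014. Kept regions were scored in 96.9% ± 1.18 (SD, n = 4) by DEX_BRM014 and in 91.3% ± 7.14 by siBRG1_siBRM, against 99.5% and 99.4% in their controls. Region by region, 8987 of the 16076 lost regions (55.9%) were in all 4 DEX_DMSO and no DEX_BRM014 library, and 4905 (30.5%) were in all 4 siCtl_only and no siBRG1_siBRM library.

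Lost gene-end and lost distal regions were also compared. In DEX_BRM014 they had a peak in 12.1% ± 4.20 and 5.98% ± 2.53 (SD, n = 4), and the gap between them was larger than in DEX_DMSO by 6.001 percentage points (exact permutation p = 0.0286, adjusted p = 0.0286). In siBRG1_siBRM the values were 24.8% ± 14.5 and 13.8% ± 12.9, and the gap was not past the threshold (exact permutation p = 0.114, adjusted p = 0.133).

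**Figure D4:**
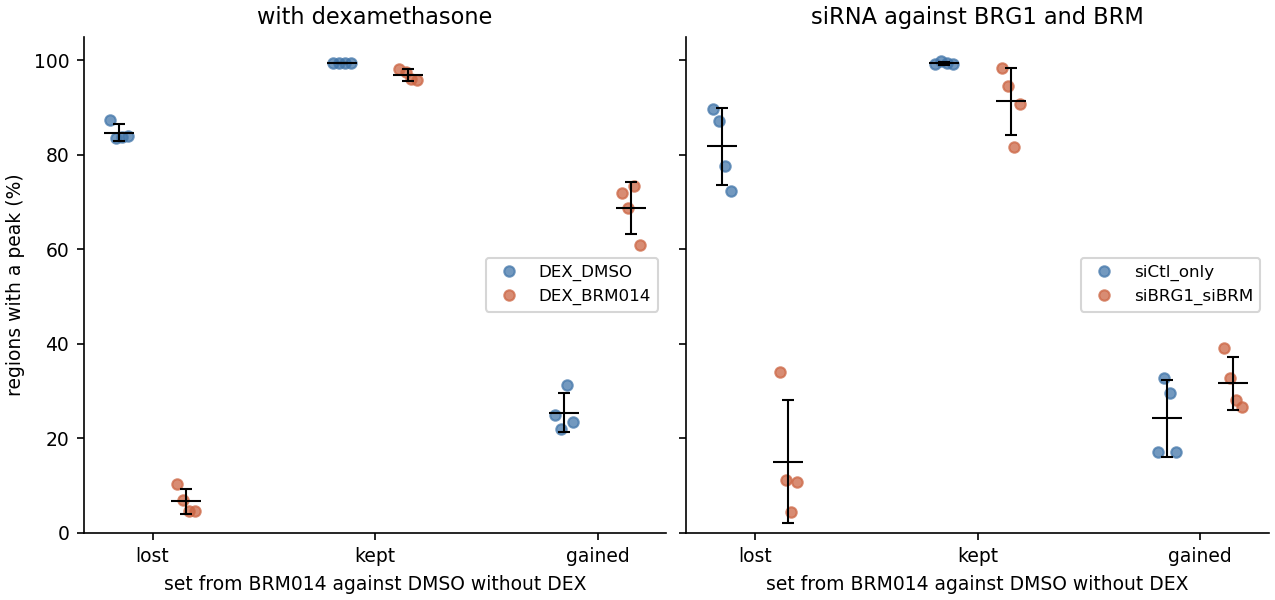
Share of lost, kept and gained regions with a peak (y axis, %) in libraries that did not choose them, with dexamethasone (left) and with siRNA (right); points are libraries, bars mean and SD (n = 4). Lost regions are at 6.67% in DEX_BRM014 and 15.1% in siBRG1_siBRM, and gained regions at 68.8% and 31.6%.

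Single lost regions with strong DMSO peaks are described next. Their place in the list is given as the percent of peaks that ranked above them, 0 being the strongest. The region chr3:196650975-196651389 in NRROS, a regulator of TGF-beta activation in myeloid cells, ranked at 2.02, 1.98, 2.85 and 2.00% of the DMSO lists, with the authors' fold enrichments of 34.3, 34.2, 30.97 and 35.7. It was among the top few percent of peaks in every DMSO library and had no peak in any BRM014 library. No DEX_BRM014 library and 3 siBRG1_siBRM libraries held it. The region chr9:94097809-94098110 in PTPDC1, a protein phosphatase gene, ranked at 1.85, 2.51, 1.62 and 2.95%, and 2 DEX_BRM014 libraries and 1 siBRG1_siBRM library held it.

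Each of the 8 strongest lost regions was held by at least 1 siBRG1_siBRM library, and some were held by DEX_BRM014 libraries as well. The region chr17:57875365-57875716 in CUEDC1 ranked at 2.79, 2.93, 3.61 and 4.56%, yet 3 DEX_BRM014 and all 4 siBRG1_siBRM libraries held it. At the start of HRCT1, chr9:35905930-35906305 ranked at 3.53, 1.84, 1.63 and 2.52%, and 3 DEX_BRM014 and all 4 siBRG1_siBRM libraries held it. The gene-start region of MBNL2, whose window is printed above, ranked at 5.80, 6.23, 7.78 and 8.90% with fold enrichments of 31.1, 31.6, 28.3 and 29.3. No DEX_BRM014 library and 2 siBRG1_siBRM libraries held it. MAD1L1, a spindle checkpoint gene, lost chr7:2110276-2110612 near a gene start, at 8.80, 7.15, 11.6 and 10.7% of the DMSO lists, and again no DEX_BRM014 library but all 4 siBRG1_siBRM libraries held it.

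Runs of neighbouring lost regions were short under the rule used. A run ended at a gap of more than 12500 bp or at any other region held by all DMSO libraries. Of 16076 lost regions 11770 were single, and no run held more than 6. Only 24.5% of the regions held by all DMSO libraries were lost, so many single ones follow from the rule itself. No expected share was computed. A run of 6 spanned 25.1 kb at chr2:215680881-215705981, nearest to MREG and to FN1, the fibronectin gene, and another run of 6 spanned 22.8 kb at chr2:233407665-233430423 in DGKD, a diacylglycerol kinase gene. All 12 of these regions were distal. Runs of 5 lay near YARS1, ADGRA3 and LNX1. By nearest gene, the most lost regions were 31 at TENM2, a teneurin cell adhesion gene, 26 at ADGRL2, an adhesion G protein-coupled receptor gene, 24 at AUTS2 and 23 at PCDH9, a protocadherin gene. Such genes are long or stand beside wide gene-free DNA, and they kept regions as well: TENM2 had 23 kept distal regions and ADGRL2 16.

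Groups of genes with known roles were read from regions inside each gene or within 50 kb, so that a region can count for several genes. Over all 19974 protein-coding genes, 52.4% had a lost region, and 16.6% of their regions held by all DMSO libraries were lost, with a median of 11.1% per gene. Targets of YAP and TEAD, which drive growth and matrix genes, lay above this, with 80 of 270 regions lost (29.6%, median 26.1%) and a lost region at 22 of 24 genes. CRIM1 lost 8 of 20 regions and AMOTL1, a YAP-binding angiomotin gene, 6 of 12, while ANKRD1 lost none of 3. The TEAD factors and their cofactors lost 29 of 105 regions (27.6%). In that list YAP1 lost 6 of 12, VGLL4 6 of 18 and WWTR1, which encodes TAZ, 4 of 22, whereas TEAD4 lost none of 10. AP-1 genes stood near the level of all genes, with 24 of 137 regions lost (17.5%) and 6 of 7 promoter windows kept, among them those of FOS, JUN and JUNB.

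Breast and mesenchymal cell-identity lists also lay above the 16.6% of all genes, but so did endothelial markers (23.1%). The mesenchymal and growth factor lists were below the 24.5% of regions counted once. Basal mammary genes lost 50 of 174 regions (28.7%), with 7 of 18 at CDH3, which encodes P-cadherin, and 3 of 17 at EGFR. Epithelial genes lost 51 of 185 (27.6%), with 5 of 13 at GRHL3. Mesenchymal and matrix genes lost 83 of 353 (23.5%), with 8 of 21 at the collagen gene COL5A2 and 8 of 17 at the fibrillin gene FBN1, but none of 9 at VIM, the vimentin gene. RUNX, CEBP and ETS factors lost 33 of 133 (24.8%), with 4 of 7 at ETS2. Growth factor receptors and ligands lost 60 of 279 (21.5%), with 3 of 12 at MET and none of 9 at INSR. Known glucocorticoid receptor targets, here without hormone, lost 59 of 324 (18.2%): GADD45A lost 6 of 9, while PER1 lost none of 21 and kept 19.

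Genes that every cell uses lay below the 16.6% of all genes, but so did neural markers (13.6%) and NF-kB and cytokine genes. Ribosomal protein genes lost 48 of 446 regions (10.8%, median 6.67%) and proteasome and mitochondrial genes 23 of 217 (10.6%). Of their promoter windows held by all DMSO libraries, 37 of 37 and 25 of 25 were kept, as were 27 of 27 of cell cycle genes and 12 of 12 of CTCF and cohesin genes, against 88.9% over all genes. Some windows in these lists met no region in any library, among them those listed for GAPDH and RB1. The state of a listed window may therefore not be that of a gene start in use. RPL18 lost none of 14 regions and the replication helicase gene MCM7 none of 13, while CDC6 lost 5 of 14. NF-kB and cytokine genes lost 21 of 186 (11.3%), with none of 16 lost at the adhesion gene ICAM1 and 2 of 3 at IL1B. All list values are descriptions with no test.

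The SWI/SNF genes themselves stood at the level of all genes, with 45 of 276 regions lost (16.3%) and 17 of 20 promoter windows kept. SMARCA4, which encodes BRG1, lost 2 of 10 regions and kept 7, and SMARCA2, which encodes BRM, lost 1 of 3 and kept 1. The promoter windows of both were kept. ARID1A, a subunit of the BAF form, lost 4 of 17 regions, PBRM1, a subunit of the PBAF form, 1 of 10, and BCL7C none of 22. The windows listed for SMARCE1 and ACTL6B were lost. Other remodeller genes lost 27 of 183 (14.8%), with 4 of 6 at HELLS and none of 12 at RUVBL2.

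Within the 31944 kept regions, ranks moved with location. All 8 libraries hold these regions, so they were ranked against one another in each library by the authors' −log10 p, 100 being the strongest. Distal regions had mean percentiles of 45.6, 46.0, 45.8 and 45.3 in DMSO and 41.4, 41.9, 42.0 and 41.6 in BRM014, all lower. Gene-start regions stood at 56.8, 56.1, 56.4 and 57.2 in DMSO and 63.2, 62.4, 62.1 and 62.9 in BRM014, all higher. The distal change of -3.92 and the gene-start change of 6.01 each had an exact permutation p of 0.0286 (adjusted p = 0.0291). The best peak of a kept region was narrower, with a median width of 223 ± 4.97 bp (SD, n = 4) in DMSO and 175 ± 15.97 bp in BRM014.

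Counted one by one, 4678 kept regions (14.6%) ranked lower in every BRM014 library than in any DMSO library and 5590 (17.5%) ranked higher. At gene starts 5.45% were lower and 29.2% higher, and among distal regions in genes 21.5% were lower and 10.6% higher. A region at chr17:17913874-17914237 in TOM1L2, a trafficking adaptor gene, stood at percentiles 99.0, 99.3, 99.2 and 98.0 in DMSO and 16.4, 3.06, 5.43 and 4.69 in BRM014. It was near the top of every DMSO library and near the bottom of every BRM014 library, although a peak was still called. A region in WDR1, an actin-disassembly gene, stood at 94.1, 87.8, 90.6 and 89.1 in DMSO and 4.27, 1.57, 2.17 and 9.41 in BRM014. A region nearest to PTGES, a prostaglandin E synthase gene, stood at 94.5, 94.4, 95.7 and 92.5 and then 17.7, 10.4, 2.48 and 1.46. These regions were kept by the rule but were weak peaks with BRM014.

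In the other direction, the region at the start of FTL, the ferritin light chain gene, stood at 11.7, 1.21, 2.97 and 3.22 in DMSO and 49.1, 64.8, 56.2 and 62.0 in BRM014. A region nearest to EEF1A1, the translation elongation factor gene, stood at 9.53, 7.91, 20.4 and 12.6 and then 63.7, 49.7, 70.2 and 67.1, and a region at RPL10, a ribosomal protein gene, at 14.9, 16.3, 23.1 and 14.8 and then 76.2, 47.1, 67.3 and 74.8. Among the 8 largest rises the region in ZBTB7B, a zinc finger factor gene, stood at 25.5, 3.82, 5.30 and 15.3 in DMSO and 69.0, 72.0, 76.1 and 73.9 in BRM014. The regions named here, rising or falling, were picked for the largest moves among regions whose groups did not overlap. Their separation therefore follows from the choice. Ranks are relative, so a higher rank does not by itself show more access.

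**Figure D5:**
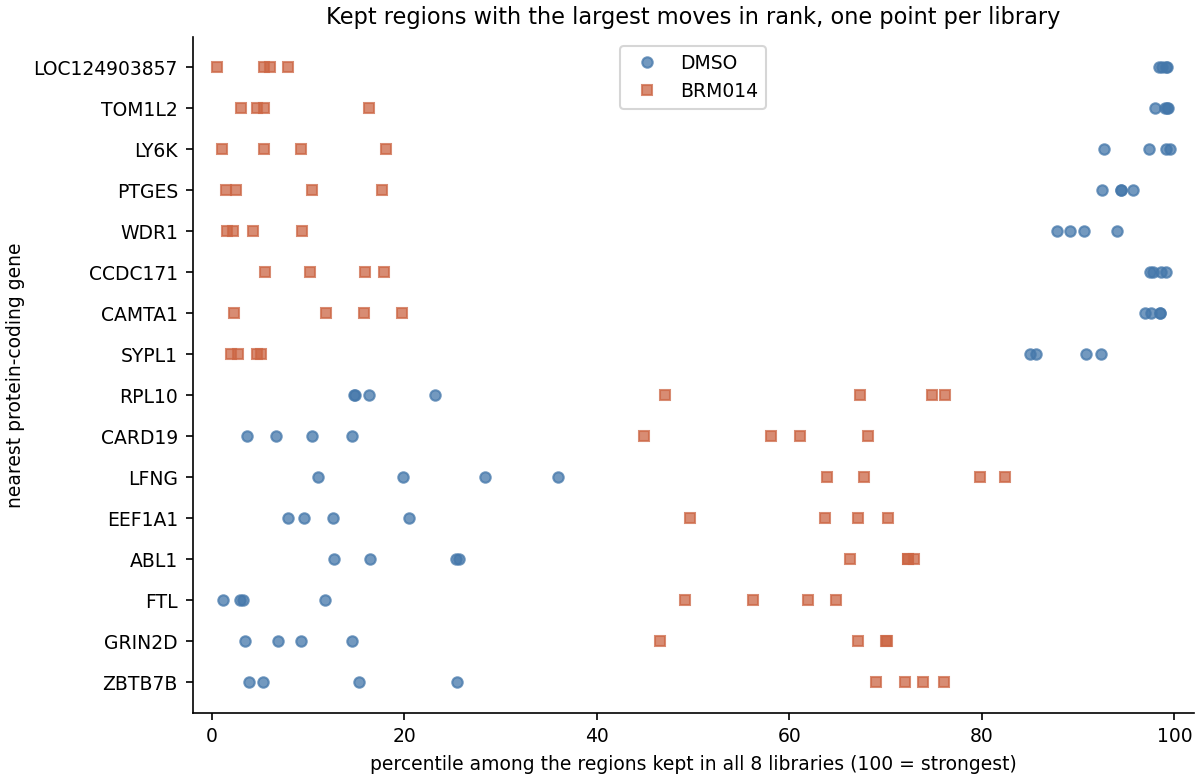
Percentile among the 31944 kept regions (x axis, 100 the strongest) in each DMSO and BRM014 library, for the 8 regions that moved down most and the 8 that moved up most (y axis, nearest protein-coding gene). TOM1L2 drops from 98.0 or more to 16.4 or less, and FTL climbs from 11.7 or less to 49.1 or more.

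The strongest kept regions need care. Of the 8 strongest kept distal regions, 3 overlap pseudogenes of mitochondrial genes in the RefSeq table, where reads from near-identical copies cannot be placed with certainty. No lost region and 11 kept regions overlap such pseudogenes. Another of the 8, chr2:148881760-148881852 in KIF5C, a kinesin gene, had fold enrichments of 98.3, 96.2, 91.6 and 96.2 in DMSO and 102, 101, 97.6 and 93.0 in BRM014, and was held by all 16 DEX and siRNA libraries. At gene ends, chr12:112125307-112125632 at TRAFD1, an innate immune regulator gene, had 44.3, 47.7, 45.1 and 44.6 in DMSO and 55.2, 51.0, 51.8 and 47.8 in BRM014. By nearest gene the most kept distal regions, 71, were assigned to LOC102723475 on chromosome 21, of 78 regions held by all DMSO libraries there, and their placing was not tested. Other genes had at most 25, with 18 nearest to ROBO1, an axon guidance receptor gene, beside 13 lost.

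Gained regions were few and mostly weak. Of the 64, 40 were distal and 24 gene-end, 7 of these at gene starts, and their median width was 161 bp against 241 bp for lost regions. They ranked at a median of 70.5% in the BRM014 lists. Genes with a gained region inside or within 50 kb were 186 of 19974 (0.931%), and no promoter window was gained. The strongest, chr11:10507892-10507961 at the 3′ end of AMPD3, an AMP deaminase gene, ranked at 4.41, 8.73, 5.41 and 4.70% of the BRM014 lists with fold enrichments of 9.75, 8.60, 9.54 and 9.29. It stood far above the others in rank, and 1 DEX_DMSO, 3 DEX_BRM014, all 4 siCtl_only and all 4 siBRG1_siBRM libraries held it. A region near PITX1, a homeobox gene, chr5:135035153-135035373, had fold enrichments of 7.53, 7.53, 7.07 and 6.60 in the BRM014 libraries, and 3 DEX_BRM014, 1 DEX_DMSO and no siRNA library held it. A region between genes nearest to IRF2BP2, a transcriptional corepressor gene, chr1:234601105-234601249, had 6.89, 7.14, 5.52 and 6.52, and 3 DEX_BRM014, no DEX_DMSO, 1 siCtl_only and no siBRG1_siBRM library held it. A region nearest to the tumour suppressor gene HIC1, chr17:2052178-2052313, had 7.60, 5.93, 5.55 and 5.17, and all 4 DEX_BRM014, no DEX_DMSO, no siCtl_only and 1 siBRG1_siBRM library held it. The region in SOX4, a developmental factor gene, was held by no DEX library but by 2 siCtl_only and all 4 siBRG1_siBRM libraries. The region in NR3C1, the glucocorticoid receptor gene, was held by 1 DEX_BRM014 library and no other library of these 4 groups. The region nearest to TAF11L4 was held by 2 libraries of each group, and that nearest to PLS3, an actin-bundling gene, by 3 DEX_DMSO, 1 DEX_BRM014, 3 siCtl_only and 3 siBRG1_siBRM libraries.

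As a set, the gained regions had peaks in 25.0, 21.9, 31.3 and 23.4% of cases in DEX_DMSO and 71.9, 68.8, 73.4 and 60.9% in DEX_BRM014, with no overlap (exact permutation p = 0.0286, adjusted p = 0.0286). With siRNA the values were 17.2, 32.8, 29.7 and 17.2% in siCtl_only and 39.1, 32.8, 28.1 and 26.6% in siBRG1_siBRM, and these overlapped (exact permutation p = 0.257, adjusted p = 0.277). The 24 gained gene-end regions alone had peaks in 16.7, 33.3, 29.2 and 20.8% of cases in siCtl_only and 41.7, 41.7, 37.5 and 37.5% in siBRG1_siBRM, with no overlap (exact permutation p = 0.0286, adjusted p = 0.0364). The 40 distal ones overlapped between the groups (exact permutation p = 0.657, adjusted p = 0.657).

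Counts of lost and gained regions depend on list length. With the 41026 best peaks of every library, 4503 regions were lost and 1141 gained, so lost regions made up 79.8% of both together, against 99.6% with the whole lists. Of these 4503 lost regions 90.8% were distal, and of the 1141 gained 63.2%. Of the 1141, 858 were held by all 4 DMSO libraries in the whole lists, and so were not without a DMSO peak. The gap between gene-end and distal reference regions with lists of equal length was 2.57 points in DMSO and 22.2 in BRM014 (exact permutation p = 0.0286). The changes in held share were smaller than with the whole lists. They were -4.02 points for gene-end regions, against -15.5, and -23.7 points for distal regions, against -36.7.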

How the data were processed

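ATAC-seq peak lists, 1 per library, were used for 27 libraries of BT549 cells. The tools named per the submitters' processing notes are MACS2, HOMER, SAMtools and bcl2fastq, with build GRCh38 (hg38). How reads were aligned, shifted and deduplicated is not stated in the labels or lists. For each peak the authors deposited a fold enrichment (ratio) over the library's own background and −log10 p and −log10 q values, all at a q of 0.05 or better. These are the authors' values and were used here to describe, rank and filter peaks and to recover the background level in 3000 weak peaks per library.

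Peaks were merged and scored as described in the results, with no exclusion list for repeats. Genes and promoter windows came from RefSeq tables (GRCh38.p14: 19974 protein-coding and 18177 lncRNA genes). The windows are not complete, and gene ends without a window have no known side. A listed window may also miss the start that these cells use. Group means over libraries were compared by two-sided exact permutation tests with Benjamini-Hochberg adjustment over 51 tests of BRM014 against DMSO and 14 each for the DEX and siRNA libraries. Python 3.11.15, numpy 2.4.6, pandas 2.3.3 and scipy 1.17.1 were used, and functions were tested on simulated data. Reads per library are unknown. Members, gene lists and rules were chosen with earlier results of these data known. Named regions were the 8 of best mean rank in each class, of which not all are reported here, and named genes those with the most lost or kept regions in each list, with other members added after their values were seen. Alternatives were a stricter q, equal list lengths, an overlap of 100 bp, merging within 150 bp, distal beyond 5000 bp, reference regions from the 3 siCtl_Veh libraries (control siRNA and vehicle), a replicate block and leaving out each library. Reading windows by their own peaks was added after seeing the data. 9 libraries were not analysed here.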

Additional observations from a re-analysis of the deposited data

Results flagged for a closer look

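Of 150 groups of 4 library values, 6 had 1 library standing apart from the other 3, by a gap that chance gives in about 1 in 20 groups. DEX_DMSO replicate 1 held 87.3% of the lost regions, where the next library held 83.9%, and 87.4% of the lost distal regions, where the next held 84.1%. Its gap of kept over lost regions was accordingly the smallest of its group, at 12.2 percentage points against 15.5 in the next. DEX_DMSO replicate 3 held 30% of the 40 gained distal regions, where each of the other 3 held 22.5%. BRM014 replicate 4 held 77.6% of the reference gene 3′ end regions in the second quintile of strength, where the next held 83.9%. DMSO replicate 4 held 99.6% in the third quintile, where the other 3 held all.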

How the results depend on the processing

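Of 48 recomputed values outside the replicate block and the left-out libraries, 45 kept their direction and their side of the threshold, or stayed within 1.5 times for counts. The exceptions were counts: with equal numbers of best peaks 4503 regions were lost and 1141 gained, and with an overlap of at least 100 bp 34 were gained. Leaving out 1 library at a time gave 80 to 276 gained regions, the highest without BRM014 replicate 4 and 102 without BRM014 replicate 1, and changed no other call: lost regions ranged from 16287 to 18878 and the gap between locations from 19.96 to 22.2 points. Peaks per library have no value with equal numbers of peaks. The cause of these shifts was not tested.

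With a replicate block, the smallest exact p for 4 pairs is 0.125, so no such test could pass the threshold, and each of the 8 differences below gave an exact p of 0.125. The blocked differences were -40483 peaks per library, -9.15 points in the distal share, -3.92 in distal rank, -36.7 and -15.5 points for distal and gene-end reference regions, 21.2 points for their gap, and -78.0 and -66.7 points for lost regions scored with DEX and after siRNA. Deviations of same-numbered DMSO and BRM014 libraries correlated at 0.066, 0.045, 0.041 and 0.021, each the highest for its library, a hint of pairing from the data. All were small, under 0.1, and the labels name no shared batch, so the numbers were not taken as pairs.

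Limits: a peak list records a call and not a read count, so a lost region may keep access below the caller's threshold. BRM014 replicate 4 has the shortest list and was lowest in most shares. Promoter windows read by their own peaks gave 585 lost and 12212 kept.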

Other observations

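Chromosomes differed in how much they lost. Of the regions held by all 4 DMSO libraries, chromosome 19 lost 10.6% and kept 68.6%, chromosome 17 lost 17.9% and chromosome 16 lost 18.6%, whereas chromosome 4 lost 30.8% and kept 40.9% and chromosome 13 lost 29.5%.

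Genes of lineages other than the breast also had regions. Leukocyte markers lost 11 of 67 regions within 50 kb (16.4%), endothelial markers 15 of 65 (23.1%) and neural markers 9 of 66 (13.6%), beside 16.6% over all genes. CDH5, the vascular cadherin gene, lost 3 of 6 regions, CD8A lost 3 of 4, and SPI1, a myeloid factor gene, kept 7 of 7. The promoter windows of leukocyte markers met no region in 6 of 7 cases. The estrogen receptor gene ESR1 lost 3 of 3 regions, and CDH1, the epithelial cadherin gene, lost 4 of 12.

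The window listed for TEAD2 was lost, and so was the window listed for FKBP5, a glucocorticoid-induced chaperone gene, in cells without dexamethasone. Near FKBP5, 2 of 5 regions were lost and 2 kept.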
